A study of Mus musculus with 3 samples.

Results

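The cells described here are Day 7 wound fibroblasts that carried transcripts of *Cxcl5*, the chemokine that draws neutrophils through the receptor CXCR2. They came from skin wounds of male C57BL/6J mice aged 7 to 12 weeks, with no genetic change or treatment named in the labels, and there is 1 single-cell RNA library for each of Days 3, 7 and 14 after wounding. Each library was made from 4 pooled wounds, so there is no replicate of any day, the cells of a library are not replicates of a condition, and no test between groups was possible. No sort was applied, and neither uninjured skin nor an untreated control belongs to these libraries. Members were chosen by their counts: a Day 7 barcode was kept with at least 2000 unique molecular identifiers (UMIs, 1 per captured transcript) and at most 10% mitochondrial UMIs. At least 1.5% of its UMIs had to come from the 8 fibroblast genes *Dcn*, *Lum*, *Pdgfra*, *Col6a1*, *Col6a2*, *Col5a1*, *Pcolce* and *Col1a2*. Less than 0.3% could come from the 4 myeloid genes *Lyz2*, *Tyrobp*, *Fcer1g* and *S100a9*, and less than 0.15% from *Acta2*, the smooth muscle actin of myofibroblasts. Of the 6399 Day 7 barcodes inside this gate, 593 had at least 5 *Cxcl5* UMIs and are the members, which is 9.27% of the gate (95% Clopper-Pearson interval 8.57% to 10.0%) and a small part of the 44693 barcodes of the whole series. A further 686 gate cells had 1 to 4 *Cxcl5* UMIs, and the 5120 cells with 0 served as the reference.

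Fibroblasts of a healing wound make the collagen-rich matrix, and they also answer inflammatory signals. Interleukin-1, tumour necrosis factor and interleukin-17 act through NF-kB and related factors to switch on CXC chemokines, colony-stimulating factors and prostaglandin synthesis, by which stromal cells call in and sustain neutrophils. Low oxygen, common in granulation tissue, stabilises hypoxia-inducible factors, which bind short promoter motifs and raise glucose transport, glycolytic enzymes, collagen-modifying hydroxylases and their own oxygen-sensing prolyl hydroxylases.

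The members were deeper than the reference. Their median was 13242 UMIs and 3365 genes per cell, against 11871.5 UMIs in the cells with 1 to 4 *Cxcl5* UMIs and 10088 UMIs and 2790 genes in the reference. *Cxcl5* UMIs per member ran from 5 to 139 with a median of 13. The median mitochondrial share was 2.24% in members and 2.46% in the reference, and *Gm42418*, a gene model overlapping ribosomal RNA, held 7.52% and 9.61% of their UMIs. Of the Day 7 barcodes, 154 also occurred in another library, among them 4 members and 38 reference cells. The gate required fibroblast genes, so their levels are no independent check of the label. After each cell was thinned to 2000 UMIs, *Dcn* (decorin), a gene the gate used, was found in 98.5% of members, 99.2% of the reference and 20.1% of 179 myeloid cells of Day 7 (at least 2% of UMIs from the 4 myeloid genes, median 4262 UMIs). *Lyz2*, a macrophage gene that the gate limited, was found in 16.4% of members and 19.4% of the reference, which is no independent check either. Free RNA in the droplets can place UMIs in cells that do not express a gene. *Cxcl5* was also counted in the 179 myeloid cells. There 0 cells reached 5 *Cxcl5* UMIs, which allows a share of up to 1.68%, and 1.12% had a *Cxcl5* UMI after thinning. Cells with more fibroblast RNA had been left out of this group, so these values cannot measure the free RNA. Members and cells with 1 to 4 *Cxcl5* UMIs were chosen by their *Cxcl5* count, so their thinned shares of 83.8% and 31.0% are no check either.

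All levels below are counts per 1000000 UMIs (CPM) summed over a group of cells, with exact 95% Poisson intervals that cover counting error only and not the spread between mice. *Cxcl5* itself stood at 1375 CPM in members and 0 in the reference, as the choice of cells required. The genes that give the cells their name were picked from this same contrast, and *Cxcl5* chose the members, so all Day 7 levels are a description. *Nos2*, the inducible nitric oxide synthase, was at 48.6 CPM in members (interval 43.9 to 53.6) and 5.18 CPM in the reference (4.59 to 5.82), 9.38-fold higher. *Ereg*, the EGF receptor ligand epiregulin, was at 276 CPM (264 to 287) against 34.4 CPM (32.9 to 36.1). *Serpinb2*, which encodes plasminogen activator inhibitor 2, was at 385 CPM (371 to 398) against 65.2 CPM (63.0 to 67.4), and *Lif*, an interleukin-6 family cytokine, at 109 CPM (102 to 116) against 20.9 CPM (19.7 to 22.1). These transcripts were found in a part of the cells only. After thinning, 6.75% of members and 0.957% of reference cells had a *Nos2* UMI, 20.1% and 2.75% an *Ereg* UMI, 30.2% and 6.04% a *Serpinb2* UMI, and 13.8% and 3.40% a *Lif* UMI. Without thinning, 156 members (26.3%) had no UMI of any of these 4 genes and 41 (6.91%) had all 4, while 72.9% of the reference had none and 5 reference cells had all 4. After thinning, 52.6% of members and 88.1% of the reference had none of the 4, and 4 members and 1 reference cell had all 4. Detection was therefore not uniform among the members. At these levels a count of 0 does not show that a transcript was absent.

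The threshold of 5 UMIs cut through a gradient. The 60 cells with exactly 5 *Cxcl5* UMIs had 12.7 CPM of *Nos2*, 80.0 CPM of *Ereg*, 110 CPM of *Serpinb2* and 24.1 CPM of *Lif*. The 83 cells with 4 *Cxcl5* UMIs, just outside, had 22.8, 147, 162 and 53.1 CPM of the same genes, so the cells just outside were not lower than those just inside. Over the wider range the levels moved with *Cxcl5*. Cells with 0, 1 to 4, 5 to 9, 10 to 19 and at least 20 *Cxcl5* UMIs had 5.18, 11.5, 29.0, 35.6 and 84.4 CPM of *Nos2* and 34.4, 74.4, 104, 235 and 508 CPM of *Ereg*. *Inhba*, the activin A subunit, was at 22.5, 42.4, 68.4, 78.1 and 288 CPM in the same order, but much of the *Inhba* in members came from a few cells, as given below. The cells with at least 20 *Cxcl5* UMIs had the highest level of each of these genes. The median depth also went up across these groups, from 10088 to 14211.5 UMIs, and its part in the gradient was not tested.

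**Figure D1:**
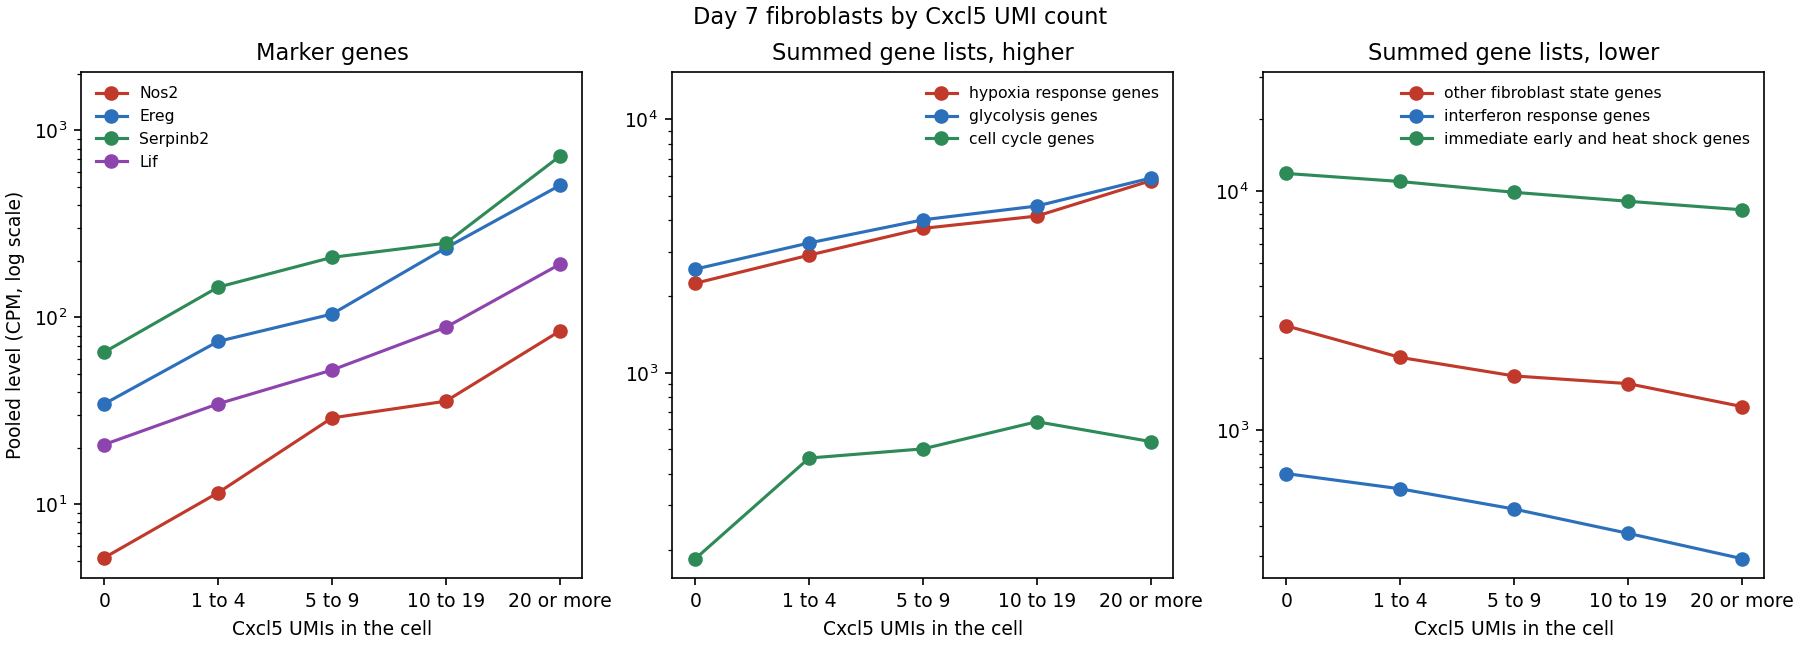
Pooled level (CPM, log scale) of marker genes and of summed gene lists in Day 7 fibroblasts grouped by the number of *Cxcl5* UMIs in the cell (x axis), with 1 point per group of cells and no error bars. The hypoxia response list goes from 2254 CPM in cells with 0 *Cxcl5* UMIs to 5722 CPM in cells with at least 20, and the interferon response list from 660 to 291 CPM.

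Across the transcriptome, 7528 genes not used by the rule had a mean of at least 10 CPM over both groups. Of these, 158 (2.1%) were at least 2-fold higher in members and 147 (1.95%) at least 2-fold lower, and the median log2 ratio of all was 0.10, with 63.5% of them above the reference. The split depended on the scaling: with a median-of-ratios size factor in place of the total, 124 genes were higher and 186 lower, so that 40.0% and not 51.8% of the genes past 2-fold lay on the higher side. It also changed when both groups were limited in depth: among the 297 members and 1812 reference cells between the members' UMI quartiles (10650 to 16414 UMIs), 98 genes were higher and 137 lower, and the parts of depth and of cell number in this were not tested. Of the 158 higher genes 137 were then still tested and 88 still past 2-fold, and of the 147 lower genes 139 and 112. The first pair of percentages, over all genes, is the background for every Day 7 list below. The 15 genes with the highest ratios were *Nos2*, *Ereg*, *Prokr2*, *Inhba*, *Serpinb2*, *Gm16685*, *Barx2*, *Lif*, *Areg*, *Csf3*, *Egln3*, *Pappa*, *Il1rl1*, *Crabp2* and *Kif11*. *Il1rl1*, the receptor of interleukin-33, was at 490 CPM (475 to 505) in members against 113 CPM (110 to 116) and was found in 41.1% of thinned members and 12% of thinned reference cells. *Inhba* was at 140 CPM against 22.5 CPM, but 54.8% of its UMIs in members came from 10 cells. *Barx2*, a homeobox transcription factor gene, was at 69.8 CPM against 13.3 CPM, *Prokr2*, a prokineticin receptor, at 20.5 CPM against 3.18 CPM, and *Crabp2*, a retinoic acid binding protein, at 31.0 CPM against 7.42 CPM.

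**Figure D2:**
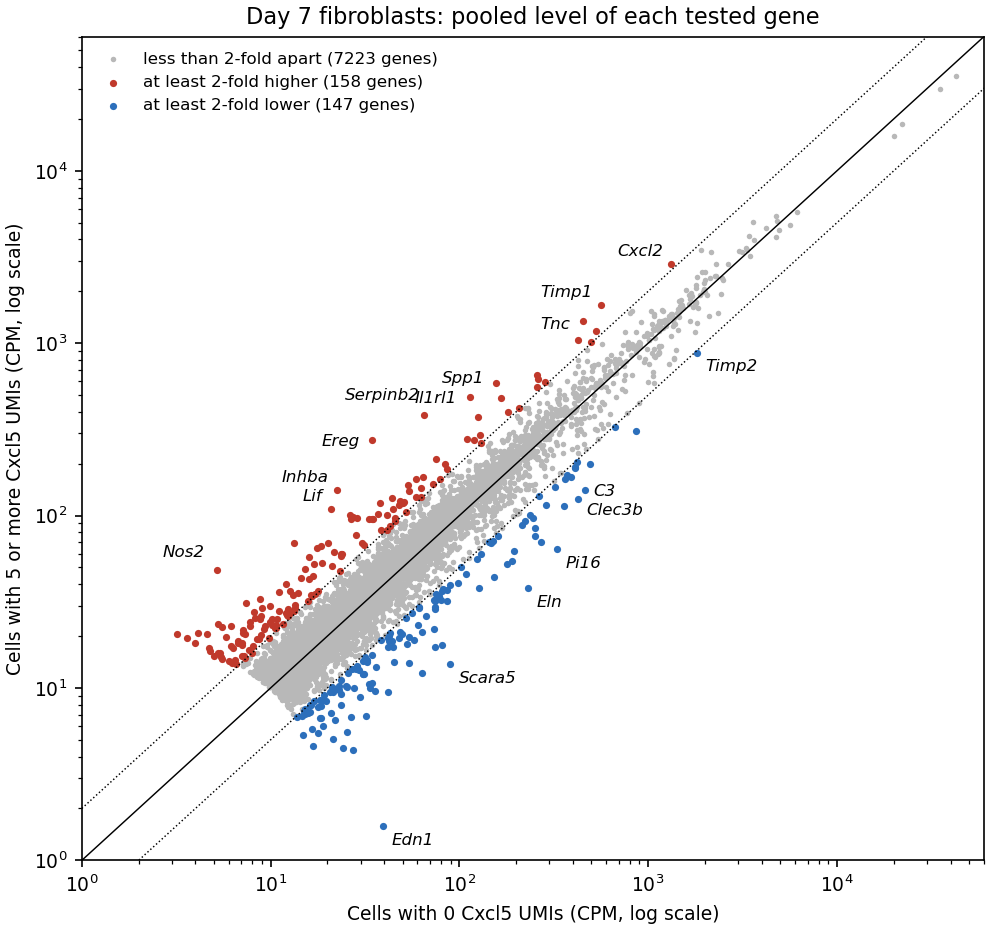
Pooled level of each of the 7528 tested genes in the 593 members (y axis) and the 5120 reference cells (x axis), both in CPM on log scales; dotted lines mark 2-fold. Red points are the 158 genes at least 2-fold higher, with *Nos2* and *Ereg* farthest from the diagonal, and blue points the 147 at least 2-fold lower, with *Edn1* lowest at 1.57 CPM in members.

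The secreted signals formed the first group. Of the neutrophil-attracting CXC chemokines other than *Cxcl5*, 3 passed the level filter and 2 of these were past 2-fold. *Cxcl3* was at 118 CPM in members and 38.0 CPM in the reference, and *Cxcl2* at 2872 CPM and 1328 CPM. *Cxcl1* was at 3495 CPM and 1908 CPM, 1.83-fold higher, and was found in 92.1% of thinned members, 71.9% of the thinned reference and 19.6% of the thinned myeloid cells. *Cxcl2* was found in 75.7% of thinned members and 49.8% of the thinned reference. Its share in the thinned myeloid cells, 64.8%, was above that of the reference. *Csf3*, the granulocyte colony-stimulating factor, was at 18.3 CPM against 3.96 CPM, with 63.6% of its member UMIs in 10 cells. The CC chemokines, which mainly attract monocytes and lymphocytes, had 0 of 6 tested genes past 2-fold in either direction. Among them *Ccl2* was at 1161 CPM against 757 CPM, *Ccl7* at 1232 CPM against 1204 CPM and *Ccl11*, which attracts eosinophils, at 61.2 CPM against 112 CPM. *Ccl5* and *Ccl20* were under the level filter and so not counted, but were higher in members. They stood at 14.5 CPM against 2.56 CPM and 8.48 CPM against 0.505 CPM. In members with 5 to 9 *Cxcl5* UMIs they were at 3.94 and 0.716 CPM, and in those with at least 20 at 32.3 and 21.8 CPM. Of 5 tested EGF receptor ligands and receptors, *Ereg* and *Areg* were past 2-fold, *Areg* (amphiregulin) at 20.8 CPM against 4.13 CPM with 59.9% of its member UMIs in 10 cells. *Egfr*, their receptor, was at 141 CPM against 197 CPM. The interleukin-6 family had 1 of 7 tested genes past 2-fold, which was *Lif*, while *Il6* stood at 379 CPM against 256 CPM and the receptor gene *Osmr* at 141 CPM against 82.5 CPM.

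The NF-kB feedback and target genes showed a smaller and broader shift. Of 17 tested genes, 16 were above the reference, beside 63.5% of all genes, 1 was past 2-fold, and the median log2 ratio was 0.44 against 0.10 for all genes. The gene past 2-fold was *Sod2*, the mitochondrial superoxide dismutase, at 128 CPM against 58.7 CPM. *Nfkb1* was at 413 CPM against 231 CPM, the ubiquitin-editing inhibitor *Tnfaip3* at 284 CPM against 182 CPM and the inhibitor *Nfkbia* at 2045 CPM against 1592 CPM. *Icam1*, an adhesion molecule, was the exception at 57.1 CPM against 112 CPM. The list of inflammatory signal receptors (for tumour necrosis factor, interleukins 17 and 4, interferon gamma and bacterial products, with the adaptor *Myd88*) had 0 of 10 tested genes past 2-fold, with log2 ratios from -0.52 to 0.48. In the interleukin-1 family, *Il1r1* was at 118 CPM against 67.5 CPM and *Il33*, an alarmin, at 253 CPM against 142 CPM, while *Il1rl1* was the 1 of 6 tested genes past 2-fold.

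Genes of inflammatory mediators were divided. *Ptgs2*, the inducible cyclooxygenase, was at 622 CPM in members and 262 CPM in the reference and was the only one of 7 tested prostaglandin genes past 2-fold. *Ptges*, which makes prostaglandin E2, was at 42.0 CPM against 46.8 CPM and the prostacyclin synthase *Ptgis* at 174 CPM against 91.7 CPM. Of 4 tested nitric oxide and arginine genes, *Nos2* alone passed 2-fold, and *Arg1* was at 38.6 CPM against 35.8 CPM. The acute-phase and defence genes went in opposite directions. *Saa3*, a serum amyloid A, was at 1016 CPM against 498 CPM, with 35.8% of its member UMIs in 10 cells, and complement *C3* was at 142 CPM against 462 CPM, a log2 ratio of -1.70 that was -0.89 with no *Pi16* UMI in either group. *Cfb*, complement factor B, was at 141 CPM against 248 CPM.

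Genes of the hypoxia response were higher as a group. Of 26 genes on the list, 20 passed the level filter, 19 of these were above the reference, 8 were past 2-fold and 0 were 2-fold lower, beside 2.1% of all genes on the higher side, and the median log2 ratio was 0.93. The summed list took 0.264% to 0.582% of a member's UMIs between the quartiles and 0.130% to 0.263% of a reference cell's, so the middle ranges of the groups nearly touched. For the glycolysis list these ranges overlapped, at 0.284% to 0.623% in members and 0.152% to 0.305% in the reference. *Egln3*, an oxygen-sensing prolyl hydroxylase, was at 20.6 CPM (17.6 to 23.9) against 4.60 CPM (4.04 to 5.21). *Fam162a* was at 372 CPM against 125 CPM, *Ddit4*, an inhibitor of mTOR signalling, at 212 CPM against 75.1 CPM and *Bnip3*, a mitophagy gene, at 116 CPM against 47.8 CPM. *Plod2* and *P4ha1*, which hydroxylate lysine and proline in collagen, were at 655 CPM against 257 CPM and 423 CPM against 208 CPM. *Mif* and *Ndrg1* were at 599 CPM against 283 CPM and 524 CPM against 286 CPM, and *Vegfa*, the endothelial growth factor, at 115 CPM against 61.1 CPM. *Adm*, adrenomedullin, was the gene below the reference, at 50.9 CPM against 65.6 CPM. The hypoxia list gave 6 to 11 genes past 2-fold under every alternative tried.

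The glycolysis genes were higher as well. Of 18 tested genes, 9 were past 2-fold, 0 were 2-fold lower and the median log2 ratio was 0.96. *Slc16a3*, the lactate exporter, was at 127 CPM (119 to 135) against 44.0 CPM (42.2 to 45.8), *Eno1* at 162 CPM against 58.8 CPM, *Pgk1* at 279 CPM against 109 CPM, *Pfkl* at 59.7 CPM against 23.6 CPM, *Pkm* at 558 CPM against 258 CPM, *Ldha* at 400 CPM against 182 CPM and *Gapdh* at 1174 CPM against 532 CPM. *Slc2a1*, the main glucose transporter, was at 118 CPM against 50.3 CPM. *Pgam1*, *Aldoa* and *Gpi1* were under 2-fold, at 378 CPM against 202 CPM, 350 CPM against 210 CPM and 168 CPM against 102 CPM. *Hk2*, hexokinase 2, was at 585 CPM against 528 CPM, *Hk1* at 28.0 CPM against 23.8 CPM and the lactate carrier *Slc16a1* at 42.5 CPM against 42.1 CPM. The summed glycolysis list went from 2563 CPM in cells with 0 *Cxcl5* UMIs through 3252, 4012 and 4547 CPM to 5861 CPM in those with at least 20.

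**Figure D3:**
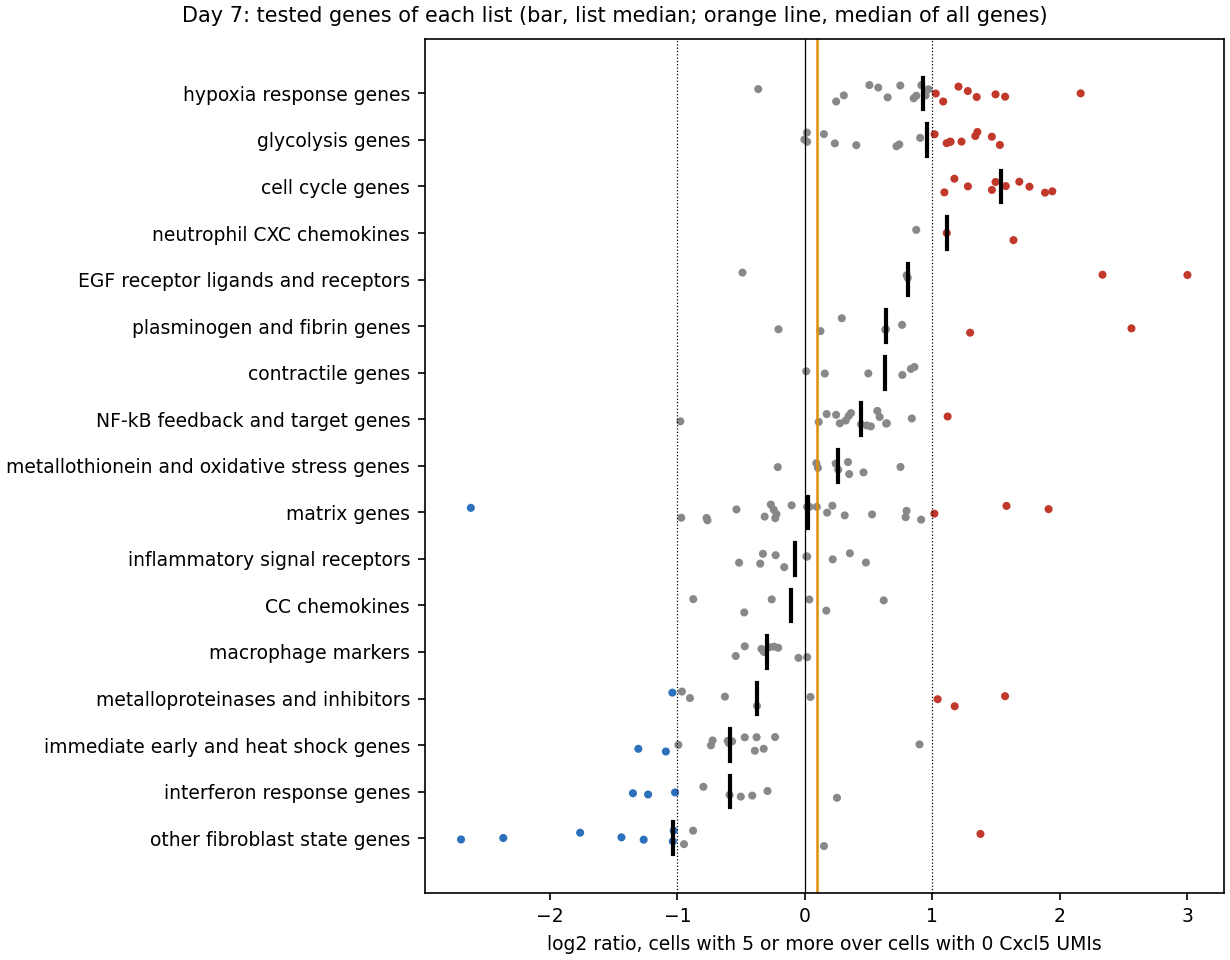
Log2 ratio of members to reference on Day 7 for the tested genes of 17 lists, 1 point per gene, red at or above 1 and blue at or below -1; black bars are list medians and the orange line the median of all tested genes (0.10). The hypoxia and glycolysis medians lie at 0.93 and 0.96, and that of the other fibroblast state genes at -1.04.

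The promoters of some of these genes are shown because genes of both the hypoxia and the cytokine groups were higher in the members. The letters ACGTG, the core of the hypoxia response element, were searched on both strands from 250 bases before to 50 bases after each RefSeq transcript start (build GRCm38.p6), with overlapping matches counted apart, so that CACGTG counts on each strand. They occurred in 16 of 27 windows of hypoxia list genes (59.3%) and 15 of 30 windows of glycolysis genes, in 26.8% of the 7691 windows of tested genes and in 19.6% of all 32851 windows. In the windows of genes at least 2-fold higher in members the share was 28.6%, and in those of genes at least 2-fold lower 16.7%. Windows were available for 113 of the 158 higher genes, 106 of the 147 lower genes and 5980 of the 7528 tested genes only. The hypoxia and glycolysis lists consist of known targets, so their share describes the lists. The 250 bases before the start are printed 5′ to 3′ on the strand of the gene, with ACGTG or its reverse complement in capitals, for *Slc16a3* (chr11:120948817-120949066, plus strand), *Fam162a* (chr16:36071562-36071811, minus strand) and *Ldha* (chr7:46845554-46845803, plus strand).
Slc16a3: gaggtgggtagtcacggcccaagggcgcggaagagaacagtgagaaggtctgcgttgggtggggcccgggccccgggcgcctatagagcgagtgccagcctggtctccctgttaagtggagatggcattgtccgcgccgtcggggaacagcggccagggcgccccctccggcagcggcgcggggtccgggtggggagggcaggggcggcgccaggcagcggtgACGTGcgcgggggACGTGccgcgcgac
Fam162a: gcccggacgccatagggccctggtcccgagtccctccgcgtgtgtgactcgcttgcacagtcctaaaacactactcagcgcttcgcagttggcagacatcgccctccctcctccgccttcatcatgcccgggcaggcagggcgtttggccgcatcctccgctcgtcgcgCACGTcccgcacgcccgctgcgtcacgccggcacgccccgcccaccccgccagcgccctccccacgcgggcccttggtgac
Ldha: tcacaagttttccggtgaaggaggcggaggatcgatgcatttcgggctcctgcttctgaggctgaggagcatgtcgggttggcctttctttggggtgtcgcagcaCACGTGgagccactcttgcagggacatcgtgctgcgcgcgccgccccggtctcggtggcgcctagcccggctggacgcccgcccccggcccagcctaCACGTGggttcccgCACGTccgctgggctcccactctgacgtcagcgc
The *Slc16a3* stretch held 2 matches within 27 bases of the start, the *Fam162a* stretch 1 and the *Ldha* stretch 5. *Ldha* has another RefSeq start whose window held 0 matches, and the 3 windows of *Eno1* held 0. A loose NF-kB pattern, GGGNNNNNCC, was too common to set genes apart, with matches in 50.8% of all windows, 69.0% of those of tested genes and 105 of the 140 windows of genes at least 2-fold higher. It is shown in capitals, on either strand, for the cytokine *Lif* (chr11:4257318-4257567, plus strand) and the chemokine *Cxcl2* (chr5:90903649-90903898, plus strand), where it occurred 5 and 3 times.
Lif: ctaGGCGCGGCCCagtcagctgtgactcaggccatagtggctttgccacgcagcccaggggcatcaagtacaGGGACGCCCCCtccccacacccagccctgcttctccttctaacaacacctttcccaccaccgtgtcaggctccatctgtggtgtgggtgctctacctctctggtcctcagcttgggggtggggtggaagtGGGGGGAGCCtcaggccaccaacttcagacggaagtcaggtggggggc
Cxcl2: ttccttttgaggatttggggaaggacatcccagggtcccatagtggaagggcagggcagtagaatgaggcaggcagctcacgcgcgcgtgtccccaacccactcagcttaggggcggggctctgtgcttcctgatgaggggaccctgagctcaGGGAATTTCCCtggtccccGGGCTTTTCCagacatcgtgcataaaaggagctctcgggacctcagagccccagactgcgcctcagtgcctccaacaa
A match is a run of letters and not a measured binding site. *Cxcl5*, *Nos2* and *Ereg* had no window among those searched and are not shown.

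Matrix genes did not move as 1 group. Of 24 tested, 13 were above the reference, beside 63.5% of all genes, 3 were at least 2-fold higher, 1 was 2-fold lower, and the median log2 ratio was 0.03. *Tnc* (tenascin C), a provisional-matrix glycoprotein, was at 1354 CPM (1329 to 1379) in members and 452 CPM (447 to 458) in the reference. *Spp1*, osteopontin, was at 591 CPM against 157 CPM, with 40.0% of its member UMIs in 10 cells, and *Col8a1* at 105 CPM against 52.1 CPM. With no *Pi16* UMI in either group *Spp1* alone of these 3 was past 2-fold, at a log2 ratio of 1.51, with *Tnc* at 0.91 and *Col8a1* at 0.43, and between the members' UMI quartiles *Col8a1* was at 0.75. *Eln*, elastin, was at 37.8 CPM against 232 CPM. The main collagens *Col1a1* and *Col3a1* were at 35652 CPM against 42919 CPM and 29864 CPM against 35094 CPM. Among proteases and their inhibitors, *Timp1*, an inhibitor of metalloproteinases, was at 1669 CPM against 562 CPM while *Timp2* was at 882 CPM against 1814 CPM, and with no *Pi16* UMI *Timp2* was under 2-fold at a log2 ratio of -0.74. *Mmp3* was at 394 CPM against 768 CPM, and *Mmp13*, at 34.2 CPM against 16.6 CPM, had 93.3% of its member UMIs in 10 cells. The list of contractile genes, which also holds the myofibroblast-associated *Lrrc15* and *Cthrc1*, had 0 of 6 tested genes past 2-fold and a median log2 ratio of 0.63, with *Tpm1* at 370 CPM against 204 CPM and *Tagln* at 53.3 CPM against 37.8 CPM. With no cell cycle UMI in either group 3 of the 6 were past 2-fold, with *Tagln* at a log2 ratio of 1.51, while *Tagln* was at -0.30 with no *Pi16* UMI. *Acta2*, limited by the rule, was at 177 CPM against 90.8 CPM. The limit left cells with more *Acta2* out of both groups, so the count for the contractile list is not independent of the rule. In the 323 Day 7 cells that failed the gate only by an *Acta2* share of at least 0.15%, 31 (9.60%, interval 6.61% to 13.3%) had at least 5 *Cxcl5* UMIs. Pooled over all 323 cells, which were not chosen by *Cxcl5*, *Nos2* and *Ereg* were at 7.08 and 29.5 CPM. The levels of the 31 cells alone were not computed, so these values cannot be set against those of the members. Over the same 323 cells other genes were above the member level, with *Tnc* at 2274 CPM, *Spp1* at 946 CPM, *Col8a1* at 301 CPM and *Inhba* at 176 CPM. The contractile gene *Tagln* was at 1071 CPM in them. The *Acta2*-high cells thus held *Cxcl5*-positive cells at a share whose interval includes that of the gate.

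The genes lower in members included markers of other fibroblast states. On the list of these genes, 7 of 11 tested genes were at least 2-fold lower and 1 was 2-fold higher, beside 1.95% and 2.1% of all genes, with a median log2 ratio of -1.04. Between the members' UMI quartiles 4 were 2-fold lower, and with no *Pi16* UMI in either group also 4. *Pi16*, a marker of universal or progenitor-like fibroblasts, was at 64.1 CPM (58.7 to 69.8) in members and 330 CPM (326 to 335) in the reference, and was found in 7.93% and 33.2% of thinned cells. *Scara5*, a ferritin receptor, was at 13.8 CPM against 89.6 CPM, *Clec3b* (tetranectin) at 125 CPM against 426 CPM, *Dpp4* at 70.7 CPM against 144 CPM and *Sema3c* at 129 CPM against 265 CPM. *Itgbl1* was at 40.8 CPM against 98.1 CPM. *Tnn*, tenascin N, was the gene on the other side, at 167 CPM against 64.3 CPM, a log2 ratio of 1.38 that was 0.71 with no *Pi16* UMI in either group. The 15 genes with the lowest ratios were *Edn1*, *Scara5*, *Efhd1*, *Eln*, *Bmp3*, *Pcolce2*, *Pi16*, *1700019D03Rik*, *Akr1c18*, *Ackr1*, *Ctla2a*, *Entpd2*, *Aldh1a3*, *Zbtb16* and *C4b*. *Edn1*, which encodes endothelin 1, had 13 UMIs in all members together, 1.57 CPM (0.838 to 2.69), against 39.4 CPM (37.7 to 41.1) in the reference. *C4b*, a complement gene, was at 70.0 CPM against 272 CPM. *Edn1* and *Ackr1* are also known from endothelial cells, whose marker list summed to 9.57 CPM in members and 22.8 CPM in the reference, and its part in these ratios was not tested. When members and reference were both limited to cells with no *Pi16* UMI (470 and 2437 cells), 100 genes were at least 2-fold higher and 90 lower. Of the 147 lower genes, 121 were then still tested and 62 still past 2-fold, and of the 158 higher genes 157 and 86. Among the 15 lowest, *Efhd1* was then at a log2 ratio of -0.97 (-2.65 over all cells), *Akr1c18* at -0.74 (-2.18) and *Aldh1a3* at 0.12 (-2.08), while the other lowest genes, apart from *Pi16* itself, still had ratios past 2-fold. Of the state markers, *Dpp4* was at -0.25 (-1.03) and *Sema3c* at -0.39 (-1.04).

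The immediate early and heat shock genes and the interferon response genes were also lower. Of 14 immediate early and heat shock genes, 13 were below the reference and 2 past 2-fold, while 63.5% of all genes were above it. The median log2 ratio of the list was -0.58. *Atf3* was at 198 CPM against 490 CPM, *Hspa1b* at 192 CPM against 409 CPM, *Fos* at 1166 CPM against 1773 CPM and *Egr1* at 1308 CPM against 1814 CPM. *Ier3* alone lay above, at 1503 CPM against 806 CPM. These genes are known to be induced while tissue is dissociated, and the part of dissociation was not tested. Of 9 tested interferon response genes, 3 were 2-fold lower and 8 below the reference, while 63.5% of all genes were above it. Between the members' UMI quartiles 1 was 2-fold lower, which was *Cxcl10*. *Cxcl10*, a chemokine for T cells, was at 96.4 CPM (89.8 to 103) against 246 CPM (241 to 250), *Irf1* at 115 CPM against 173 CPM, and *Ifit1* at 8.36 CPM against 19.6 CPM. By contrast the metallothionein and oxidative stress genes and the unfolded protein genes had 0 genes past 2-fold, with median log2 ratios of 0.26 and 0.19.

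Cell cycle transcripts were higher in members. All 10 tested cell cycle genes were at least 2-fold higher, with a median log2 ratio of 1.54. Between the members' UMI quartiles 2 of 8 tested genes were past 2-fold, *Pclaf* and *Birc5*, with a list median of 0.79. *Top2a*, a topoisomerase of dividing cells, was at 101 CPM against 26.3 CPM, *Mki67* at 97.1 CPM against 28.7 CPM and *Pclaf* at 64.7 CPM against 17.5 CPM, while *Kif11*, the mitotic kinesin among the 15 highest ratios, was at 22.5 CPM against 5.51 CPM, a log2 ratio of 2.03 that was 0.92 between the members' UMI quartiles. At 2000 UMIs per cell, 26.0% of members (interval 22.5% to 29.7%) had a UMI of the 12 listed genes, against 20.4% (17.5% to 23.6%) of cells with 1 to 4 *Cxcl5* UMIs and 12.8% (11.9% to 13.7%) of the reference. The summed list was at 461 CPM in cells with 1 to 4 *Cxcl5* UMIs and at 501, 641 and 535 CPM in members with 5 to 9, 10 to 19 and at least 20, against 185 CPM in the reference. It was thus already high in cells with few *Cxcl5* UMIs, while the hypoxia list went up over every step. Among members, the 348 with a cell cycle UMI had 42.0 CPM of *Nos2* and 273 CPM of *Ereg*, and the 245 without had 59.9 and 280 CPM. With cell cycle UMIs absent from both groups (245 and 3259 cells), 155 genes were at least 2-fold higher and 151 lower. Of the 158 higher genes over all cells, 106 were then still tested and 96 still past 2-fold, and of the 147 lower genes 145 and 112.

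Markers of other cell types were low in both groups, with 4 summed lists below the reference in members and 4 above it. The gate limited the 4 myeloid genes and required fibroblast genes in both groups. Low levels of these lists are therefore no independent check of the label. The summed macrophage list stood at 477 CPM in members and 578 CPM in the reference, with 1 of 10 genes above the reference and all 10 detected. Per cell, the list's quartiles were 0.0085% to 0.0324% of UMIs in members and 0.0088% to 0.0371% in the reference. Neutrophil markers summed to 84.1 CPM against 80.9 CPM, where *S100a8* was at 42.4 CPM against 31.1 CPM, *Mmp9* at 14.1 CPM against 6.22 CPM and *Il1r2* at 20 CPM against 36.4 CPM. Keratinocyte, endothelial, T cell, mast cell and Schwann cell lists summed to 13.1, 9.57, 3.03, 1.57 and 0.363 CPM in members and 28.1, 22.8, 2.92, 1.38 and 0.748 CPM in the reference. *Cldn5*, *Cpa3*, *Sox10*, *Cdh19* and *Ncmap* had 0 UMIs in members. The pericyte list was higher, 201 CPM against 119 CPM. It was carried by *Ndufa4l2*, a mitochondrial gene also known as a hypoxia target, at 150 CPM against 53.4 CPM, and by *Rgs5* at 22.4 CPM against 11.9 CPM, of which 94.6% of member UMIs came from 10 cells, while *Abcc9* and *Kcnj8* were at 16.7 CPM against 31.9 CPM and 9.08 CPM against 19.2 CPM. Doublet scoring, with the total number of marked barcodes set in advance, marked 13.7% of members and 14.3% of the reference. Without them 196 genes were at least 2-fold higher and 170 lower.

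The same rule was applied to the libraries of Days 3 and 14, which it did not use. Members made up 299 of 363 gate cells on Day 3 (82.4%, interval 78.1% to 86.1%), 593 of 6399 on Day 7 and 81 of 7180 on Day 14 (1.13%, 0.897% to 1.40%). Day 3 cells were far deeper, with a median of 49049 UMIs in members, and the Day 3 reference had 23 cells with a median of 25290 UMIs. With 1 library per day, day and library cannot be told apart. The Day 3 contrast had 6.18% of 7708 tested genes at least 2-fold higher and 4.53% lower, and the Day 14 contrast 2.11% and 1.56% of 7029.

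The genes that name the Day 7 cells did not all follow *Cxcl5* on the other days. *Nos2* was at 163 CPM in Day 3 members (157 to 170) and 56.5 CPM in the Day 3 reference (39.6 to 78.3). In Day 14 members it had 0 UMIs, which allows up to 2.61 CPM, and it was at 0.263 CPM in the Day 14 reference. *Ereg* was at 148 CPM against 84.8 CPM on Day 3 and at 23.5 CPM (15.5 to 34.2) against 8.95 CPM (8.29 to 9.65) on Day 14. *Serpinb2* was at 1386 CPM against 917 CPM on Day 3 and at 6.97 CPM against 19.1 CPM on Day 14. *Lif* was at 194 CPM against 75.4 CPM on Day 3 and at 13.1 CPM against 13.8 CPM on Day 14. *Ereg* was thus the one of the 4 that lay above the reference in all 3 libraries, while *Serpinb2* and *Lif* were not above it on Day 14 and *Nos2* was too low there to compare. The intervals leave out the spread between cells, the Day 3 reference held 23 cells, and these differences were not tested.

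The chemokine and hypoxia lists parted between the days. *Cxcl1*, *Cxcl2* and *Cxcl3* were all at least 2-fold higher in Day 14 members: *Cxcl1* was at 7474 CPM against 2808 CPM, *Cxcl2* at 5489 CPM against 1889 CPM and *Cxcl3* at 69.7 CPM against 27.6 CPM. On Day 3 *Cxcl2* was at 1128 CPM against 316 CPM and *Cxcl1* at 3077 CPM against 2294 CPM. Of the 3 tested genes of this list 1 was past 2-fold on Day 3, and the lowest log2 ratio was 0.16. The median log2 ratio of the hypoxia list was 0.69 on Day 3 (6 of 20 tested genes past 2-fold), 0.93 on Day 7 and 0.00 on Day 14 (1 of 18). That of the glycolysis list was 0.64 on Day 3 (1 of 17), 0.96 on Day 7 and 0.07 on Day 14 (0 of 15). *Slc2a1* was at 135 CPM against 83.2 CPM on Day 3 and 13.9 CPM against 13.3 CPM on Day 14, and *Pgk1* at 838 CPM against 536 CPM and 54.0 CPM against 55.1 CPM. *Plod2* was the hypoxia gene past 2-fold on Day 14, at 189 CPM against 77.7 CPM. The interferon response list had a median log2 ratio of -0.25 on Day 3, -0.59 on Day 7 and 0.92 on Day 14, where *Cxcl10* was at 719 CPM against 385 CPM. *Tnc* lay on the same side in every library, at 725 CPM against 113 CPM on Day 3 and 717 CPM against 152 CPM on Day 14, and so did *Timp1*, at 3975 CPM against 2674 CPM and 1150 CPM against 453 CPM. *Inhba* was at 94.5 CPM against 1.57 CPM, where the reference value is 1 UMI, on Day 3 and at 105 CPM against 18.8 CPM on Day 14.

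**Figure D4:**
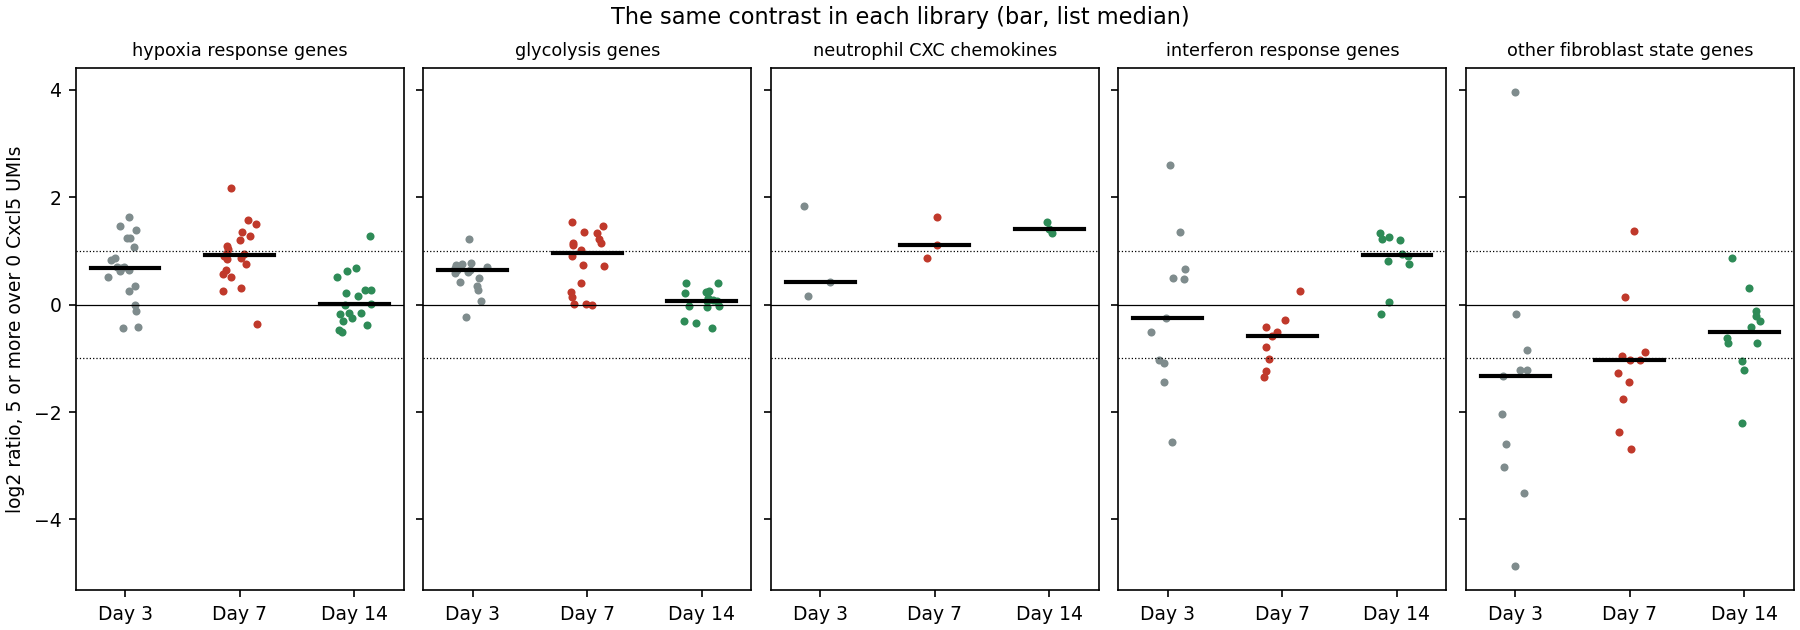
Log2 ratio of cells with at least 5 to cells with 0 *Cxcl5* UMIs in each library, 1 point per tested gene of 5 lists, with black bars at the list medians and dotted lines at 2-fold. The hypoxia medians are 0.69, 0.93 and 0.00 on Days 3, 7 and 14 and the interferon medians -0.25, -0.59 and 0.92; the Day 3 reference holds 23 cells.

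The Day 7 genes past 2-fold were looked up in the contrasts of the other libraries. Of the 137 Day 7 higher genes tested on both Days 7 and 3, 85 were also past 2-fold on Day 3, which is 62.0% of the Day 7 genes and 22.0% of the 386 Day 3 genes. Of 83 tested on both Days 7 and 14, 35 were past 2-fold on Day 14 (42.2% of the Day 7 and 32.4% of the 108 Day 14 genes). For lower genes the counts were 82 of 125 with Day 3 (65.6% and 29.2%) and 20 of 140 with Day 14 (14.3% and 27.4%). Of all genes tested on both days, 5.45% were higher and 3.97% lower on Day 3, and 1.60% and 1.08% on Day 14.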

How the data were processed

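Mouse wound skin was dissociated, red cells were lysed, debris was removed, and cells were captured with the 10x Genomics Chromium 3′ kit, 1 library each for Days 3, 7 and 14. Per the submitters' processing notes, reads were processed with Cell Ranger 6.0.0 on mm10; the annotation release was not given in the sources used here. The authors deposited a table of UMI counts per gene and barcode for each library, with no normalization. These counts were read as deposited, and 32158 of 32285 gene IDs had a symbol in the table used. Barcodes, UMIs and gate cells per library numbered 5158, 38133650 and 363 on Day 3, 22924, 120940799 and 6399 on Day 7, and 16611, 112713257 and 7180 on Day 14.

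Counts were summed over the cells of a group and divided by the group's total (CPM). A gene was tested if the mean of the CPM of both groups was at least 10, and was taken as higher or lower at 2-fold. The 14 genes of the rule were kept out of these counts. Here "tested" means passing this filter: with 1 library a day no p-value was computed. Intervals are exact 95% Poisson or Clopper-Pearson intervals, cover counting error only, and take each UMI as 1 molecule. A count of 0 was read as at most 3. Shares of cells with a UMI were compared after each cell was thinned to 2000 UMIs, which left out 0 cells. Doublets were scored by simulation, and the 1978 highest scores of 21568 scored Day 7 barcodes (9.17%) were marked. This number was set in advance from an assumed rate and is not a measured frequency. Marked barcodes were kept, with their removal as an alternative. The gene lists and members were chosen with earlier results of these data known. Named genes were the listed genes and the 15 with the highest and the 15 with the lowest ratios, and 1 listed gene, *Cxcl11*, was not matched. Results of some listed genes are not reported here. Alternatives numbered 11 planned and 2 added after the data were seen. Promoter windows came from a RefSeq table of GRCm38.p6, without chromosome 18. Analyses used Python 3.11.15, numpy 2.4.6, scipy 1.17.1, pandas 2.3.3, scikit-learn 1.9.0 and matplotlib 3.10.9. The formulas of the fold ratio and its interval were tried on simulated Poisson counts, which hold no spread between cells. The gate, thinning, list counts and promoter counts were not run on simulated data.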

Additional observations from a re-analysis of the deposited data

Results flagged for a closer look

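Genes of the named lists that were past 2-fold in members on Day 7 and past 2-fold the other way on another day, with at least 10 UMIs in each group, stand apart, and none of these differences between days was tested. *Csf3*, the granulocyte colony-stimulating factor, was higher on Day 7 (18.3 CPM against 3.96 CPM) and lower on Day 3, with a log2 ratio of -1.29 (120 CPM against 294 CPM, the latter from 23 cells). *Rsad2*, an interferon-induced antiviral gene, was lower on Day 7 (7.39 CPM against 15 CPM) and higher on Day 3, with a log2 ratio of 2.59 (123 CPM against 20.4 CPM). Between the members' UMI quartiles its Day 7 log2 ratio was 0.0582, so it was not lower there. *Ifit1*, also interferon-induced, was lower on Day 7 (8.36 CPM against 19.6 CPM) and higher on Day 14, with a log2 ratio of 1.32 (36.6 CPM against 14.6 CPM). *Ndufa4l2* was higher on Day 7 (150 CPM against 53.4 CPM) and lower on Day 14, with a log2 ratio of -1.30 (48.8 CPM against 120 CPM). *Serpinb2* was past 2-fold lower on Day 14 as well (6.97 CPM against 19.1 CPM), on 8 UMIs in members.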

How the results depend on the processing

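No paired analysis was possible because each day has 1 library. Of the gene counts and the share of members, 50 values under the alternatives stayed within 1.5 times of the reported ones or within the counting interval. The genes lower in members numbered 234 when CPM left out the 50 most abundant genes. The genes higher numbered 98 within the members' UMI quartiles, and the share of members there was 12.4%. That share was 11.9% with at least 3 and 5.88% with at least 10 *Cxcl5* UMIs, by construction. With no filter on low genes 1565 were higher and 1130 lower. With no *Pi16* UMI in either group, an alternative chosen after seeing the data, 100 were higher and 90 lower. Of named genes past 2-fold, *Rsad2* changed sides within the UMI quartiles (log2 ratio 0.0582), *Mmp13* with at least 10 *Cxcl5* UMIs (-0.64) and *Aldh1a3* with no *Pi16* UMI (0.12), and the cause was not tested. In the other settings (mean of single-cell CPM, at most 5% mitochondrial UMIs, under 0.1% myeloid UMIs, doublets or shared barcodes removed, no cell cycle UMI), 155 to 196 genes were higher and 147 to 170 lower. Over all of these the hypoxia list had 6 to 11 and the glycolysis list 6 to 10 genes past 2-fold. A single library a day gives no spread between mice, and outside the setting with no filter, genes with a mean under 10 CPM over both groups were left out of the counts.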

Other observations

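Growth factor genes of the members showed no common direction. Of 10 tested growth and angiogenic factors, *Inhba* was past 2-fold on the higher side and *Igf1*, insulin-like growth factor 1, on the lower side, at 190 CPM in members against 411 CPM in the reference. The keratinocyte growth factor *Fgf7* was at 88.9 CPM against 49.5 CPM, *Hgf*, another factor that acts on epithelium, at 29.1 CPM against 24.5 CPM and *Tgfb2* at 192 CPM against 122 CPM. On Day 14 *Igf1* lay on the other side, at 610 CPM in members against 528 CPM, which was not tested.

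Among other genes of the plasminogen system than *Serpinb2*, urokinase *Plau* was at 29.8 CPM against 19.3 CPM, its receptor *Plaur* at 37.8 CPM against 24.3 CPM, tissue plasminogen activator *Plat* at 402 CPM against 465 CPM and tissue factor *F3*, which starts clotting, at 160 CPM against 94.2 CPM. Of 4 tested hyaluronan genes 0 were past 2-fold, with the synthase *Has2* at 131 CPM against 81.3 CPM, the receptor *Cd44* at 674 CPM against 411 CPM the hyaluronan-binding *Tnfaip6* at 1530 CPM against 1038 CPM and, below the reference, the synthase *Has1* at 466 CPM against 508 CPM.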
